A study of Mus musculus with 8 samples.

Results

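The retinoic acid pathway was followed in neonatal lung endothelial cells (ECs) through 9 genes: the receptors Rara, Rarb, Rarg and Rxra, the enzymes Aldh1a1, Aldh1a2, Dhrs3 and Cyp26b1, and the retinol transporter Stra6. They were chosen by name, as the rows of the deposited gene table that carried these symbols, and each symbol matched 1 of its 54532 rows. Retinoic acid, the active form of vitamin A, is made within cells by oxidation of retinol to retinaldehyde and of retinaldehyde to retinoic acid. It binds RAR proteins, which sit on DNA as pairs with RXR proteins and switch target genes, and it is removed by enzymes of the CYP26 family. In the lung the pathway is known for its part in airway branching before birth and in the formation of alveolar septa after it.

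The ECs came from wild-type mouse pups on postnatal day 14 that had been kept from postnatal day 0 in room air (normoxia, 21% O2, 4 libraries) or in hyperoxia (80% O2, 4 libraries), an exposure used to model the arrested lung growth of bronchopulmonary dysplasia. No further agent is named for either group, and the comparison asks how the oxygen exposure altered gene expression in lung ECs. Cells that bound CD45 beads had been discarded and cells that bound CD31 beads kept, so each library is an EC-enriched isolate that can carry RNA of other lung cells. The labels do not say whether libraries came from separate animals, so the p-values measure only the spread between these libraries.

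Total counts ran from 16098086 to 18300730 per library. Counts of both Xist and Y-linked genes were abundant in 5 of the 8 libraries, so these held RNA of both sexes. Normoxia 2 and hyperoxia 4 held only 3 and 5 counts of Xist, and hyperoxia 3 held only 7 counts of the Y-linked genes. The part of sex in the results was not tested. The summed level of 12 pan-endothelial markers, led by Cdh5 and Pecam1, was 17990 to 19000 CPM (counts scaled to a common library size) in normoxia and 18178 to 19145 CPM in hyperoxia. The like sums held opposite moves, since 5 of the 12 rose and 3 fell in hyperoxia at an edgeR adjusted p under 0.05. Cdh5 and Pecam1 were among the 4 that did not pass. The mitochondrial share of counts was 0.864 to 1.05% in normoxia and 1.21 to 1.43% in hyperoxia, without overlap, and its part in the results was not tested. The isolates also differed in the markers of other cells. All 9 alveolar type 2 (AT2) markers and all 7 alveolar type 1 (AT1) markers rose in hyperoxia. Their sums were 248 to 349 CPM and 77.2 to 96.0 CPM in normoxia, against 794 to 2381 CPM and 161 to 461 CPM in hyperoxia. The library of hyperoxia 3 stood apart, with the lowest AT2 and AT1 sums of its group, and the fall of Cyp26b1 is given with and without it.

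Measured per length of gene, the 9 genes fell into an abundant and a scarce set in both groups. On the scale of FPKM (fragments scaled to the gene length and the library total) Rara was the most abundant member in normoxia at 36.8 ± 3.74 (SD, n = 4, as for all values with ± here). It was followed by Rarg at 33.9 ± 2.72 FPKM, Cyp26b1 at 28.2 ± 4.27 FPKM, Dhrs3 at 22.2 ± 2.11 FPKM and Rxra at 18.01 ± 1.10 FPKM. The ranges of Rara and Rarg overlapped, as did those of Rarg and Cyp26b1, whereas Cyp26b1, Dhrs3 and Rxra did not overlap in that order. The other members stood far lower in normoxia, with Rarb at 0.451 ± 0.128 FPKM, Stra6 at 0.344 ± 0.0788 FPKM, Aldh1a1 at 0.332 ± 0.142 FPKM and Aldh1a2 at 0.0801 ± 0.144 FPKM. The first 3 of these overlapped one another. Thus the receptors Rara and Rarg lay above 91.5% and 91.1% of the tested genes in mean FPKM, while the enzymes that make retinoic acid itself were barely detected in these isolates. In hyperoxia Rara and Rarg both averaged 34.0 FPKM, and Dhrs3 at 25.2 ± 1.36 FPKM and Rxra at 16.7 ± 0.762 FPKM now stood above Cyp26b1 at 9.30 ± 2.86 FPKM, each without overlap.

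**Figure D1:**
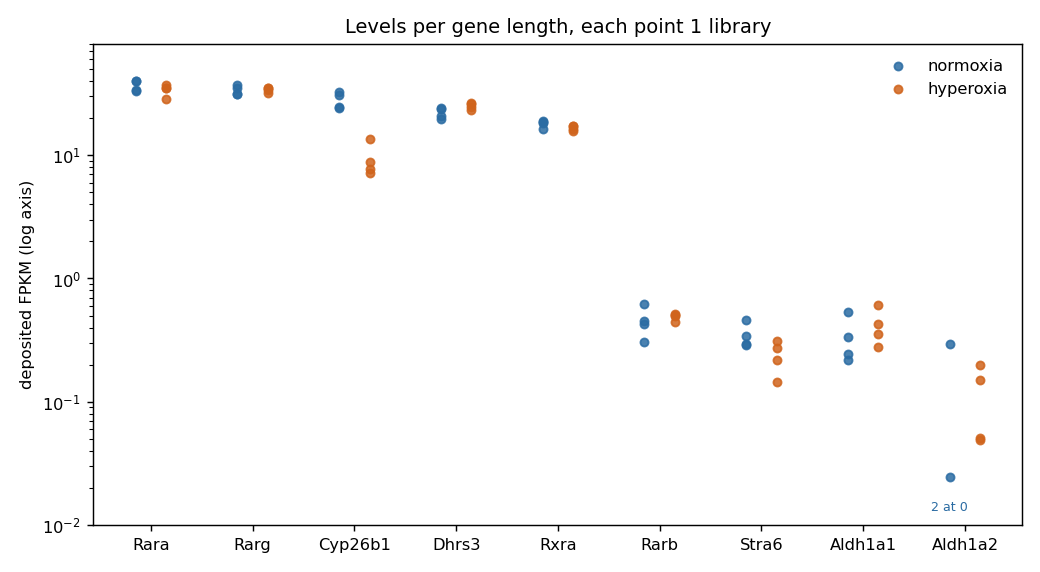
Deposited FPKM of the 9 genes on a log axis, 1 point per library, normoxia in blue and hyperoxia in orange. Cyp26b1 was at 28.2 FPKM in normoxia and 9.30 FPKM in hyperoxia, while Rarb, Stra6, Aldh1a1 and Aldh1a2 stayed under 1 FPKM in every library.

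Of the 9 genes, 8 had enough counts to be tested between hyperoxia and normoxia, and 1 of them (12.5%), Cyp26b1, passed an adjusted p of 0.05 in edgeR's quasi-likelihood test with Benjamini-Hochberg adjustment. Across all genes, 5535 of 15564 tested genes passed (35.6%), and 2660 of them, or 17.1% of those tested, were lower in hyperoxia. Cyp26b1 was also the 1 member whose groups did not overlap, against 35.4% of all tested genes. The median log2 fold change of the 8 tested members was -0.05, beside -0.00400 over all tested genes. Aldh1a2 fell below the filter on low counts. In bulk RNA a change in the share of a cell type and a change in RNA per cell cannot be told apart, and this holds for each difference described here.

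**Figure D2:**
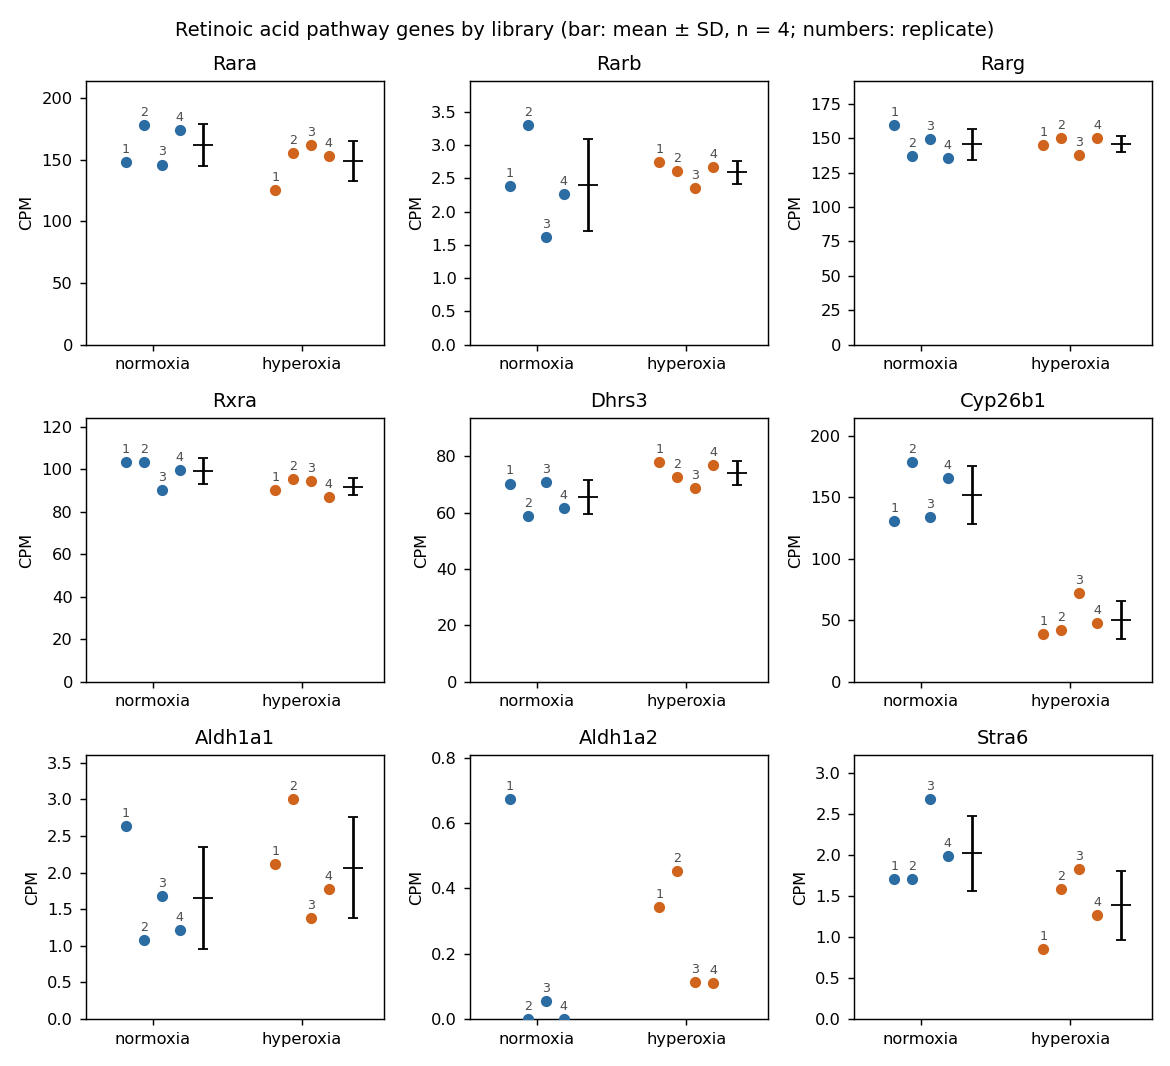
CPM of the 9 genes in each library (points, numbered by replicate) with the mean and SD of each group of 4 (bars, left out for Aldh1a2, which had libraries at 0). The Cyp26b1 panel shows 4 normoxia libraries from 130.9 to 178.6 CPM above 4 hyperoxia libraries from 38.6 to 72.3 CPM, and the groups overlap in all other panels.

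Cyp26b1 (ENSMUSG00000063415, chr6:84571414-84593908, minus strand, GRCm38) encodes the enzyme that oxidizes retinoic acid to inactive products and so limits where it acts. Its level was 130.9, 178.6, 133.6 and 165.5 CPM in normoxia 1 to 4. In hyperoxia 1 to 4 it was 38.6, 41.7, 72.3 and 47.4 CPM. The lowest normoxia library was thus well above the highest hyperoxia library, hyperoxia 3. The gene fell by 1.61 on the log2 scale in hyperoxia (SE 0.183, 95% interval -2.01 to -1.20, edgeR adjusted p = 7.71e-05), a level 3.04-fold lower (interval 2.30 to 4.03). A change of at least 1 on the log2 scale with an adjusted p under 0.05 was seen in 6.98% of the tested genes and a fall of that size in 1.36%, and Cyp26b1 ranked 41 among the 2660 genes that fell. Without hyperoxia 3 its log2 fold change was -1.84 (edgeR adjusted p = 2.94e-06), and with each library left out in turn it lay between -1.84 and -1.499.

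The other CYP26 enzymes were scarce. Cyp26a1, which also breaks down retinoic acid and is itself a classical target of the receptors, averaged 1.14 ± 0.308 CPM in normoxia against 0.751 ± 0.264 CPM in hyperoxia. The log2 fold change of -0.60 did not pass the test (95% interval -1.32 to 0.12, edgeR adjusted p = 0.181). Cyp26c1 averaged 0.466 and 0.439 CPM and was not tested. Of the summed FPKM of the 3 enzymes, Cyp26b1 made up 97.0 ± 0.649% in normoxia but 93.2 ± 1.71% in hyperoxia. The ratio of Cyp26b1 to Dhrs3 in FPKM was 1.02, 1.66, 1.03 and 1.47 in normoxia 1 to 4, and 0.271, 0.314, 0.575 and 0.337 in hyperoxia 1 to 4.

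The fall of Cyp26b1 moved together with several marker lists. Arterial EC markers, led by Efnb2 and Cxcl12, summed to 2919 to 3595 CPM in normoxia but 2093 to 2340 CPM in hyperoxia, and 5 of 8 fell. General capillary (gCap) markers, of which Ptprb and Cd93 were the most abundant, summed to 10019 to 11467 CPM and 8469 to 9738 CPM. Of these markers 5 of 8 were lower and 1 higher. The marker that rose was Cd93 (log2 fold change 0.23, edgeR adjusted p = 0.0267). Aerocyte capillary (aCap) markers, led by Apln and Tbx2, summed to 1113 to 1552 CPM in normoxia but 2430 to 2910 CPM in hyperoxia, and all 7 rose. For each of these sums the groups did not overlap, with the smallest p that an exact two-sided permutation test of 4 against 4 can give (p = 0.0286, adjusted over 13 lists 0.0531). Within groups the order was mixed. Normoxia 2 and 4, the higher pair for Cyp26b1, had the higher arterial and gCap sums and the lower aCap sums of their group. Likewise hyperoxia 3, the highest hyperoxia library for Cyp26b1, had the highest gCap and arterial sums and the lowest aCap sum of its group. Hyperoxia 4, next to it in Cyp26b1, had the highest aCap sum of the group, with 8547 CPM of gCap and 2272 CPM of arterial markers, each above hyperoxia 1 alone. Lymphatic EC markers, led by Lyve1 and Flt4, summed to 1248 to 1337 CPM in normoxia but 1871 to 2130 CPM in hyperoxia. The exact permutation test again gave p = 0.0286 (adjusted over 13 lists 0.0531), and all 5 tested members rose. Most of this sum was Lyve1, with means of 954 CPM in normoxia and 1602 CPM in hyperoxia. The groups overlapped for Prox1 (means 10.9 and 16.6 CPM), Mmrn1 and Reln. Hyperoxia 3 had the highest lymphatic sum as well. Venous EC markers overlapped between the groups, at 2406 to 3064 CPM and 2566 to 3454 CPM, and 3 of 5 tested members rose. The part of EC subtypes in the fall of Cyp26b1 was not tested.

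Of the non-endothelial markers, those of AT1, AT2 and mural cells moved with it as well. Besides the AT1 and AT2 lists, mural cell markers summed to 50.1 to 88.2 CPM in normoxia but 107 to 188 CPM in hyperoxia, and 7 of 10 rose. Fibroblast markers summed to 183 to 366 CPM and 245 to 638 CPM, with 4 of 10 tested members higher. Leukocyte markers summed to 162 to 340 CPM and 211 to 519 CPM, with 2 of 9 higher and 1 lower. Fibroblast and leukocyte sums thus overlapped between the groups, and the median log2 fold change of the leukocyte markers was -0.00345. Lyz2, the most abundant leukocyte marker, rose from a mean of 77.3 to 225 CPM, with groups that overlapped through hyperoxia 3 at 101 CPM. The marker that fell was Cd68, from a mean of 40.8 to 25.7 CPM (edgeR adjusted p = 0.000502). The sums of mesothelial and of airway epithelial markers reached at most 4.85 and 3.20 CPM in any library, and Muc16 and Krt5 were at 0 in all 8. With a score of the AT1 and AT2 markers added to the model, the log2 fold change of Cyp26b1 was -0.26 (SE 0.250, edgeR adjusted p = 0.725), and with a score of mural markers it was -0.97 (SE 0.257, edgeR adjusted p = 0.0588). With a score of fibroblast markers it was -1.27 (edgeR adjusted p = 0.000534). The AT1, AT2 and mural sums did not overlap between groups, so in these fits the score and the oxygen exposure cannot be told apart except through the spread within groups. When hyperoxia 3 was also left out of the fit with AT1 and AT2 markers, an alternative chosen after seeing the data, the value was 0.11 with an SE of 0.838.

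**Figure D3:**
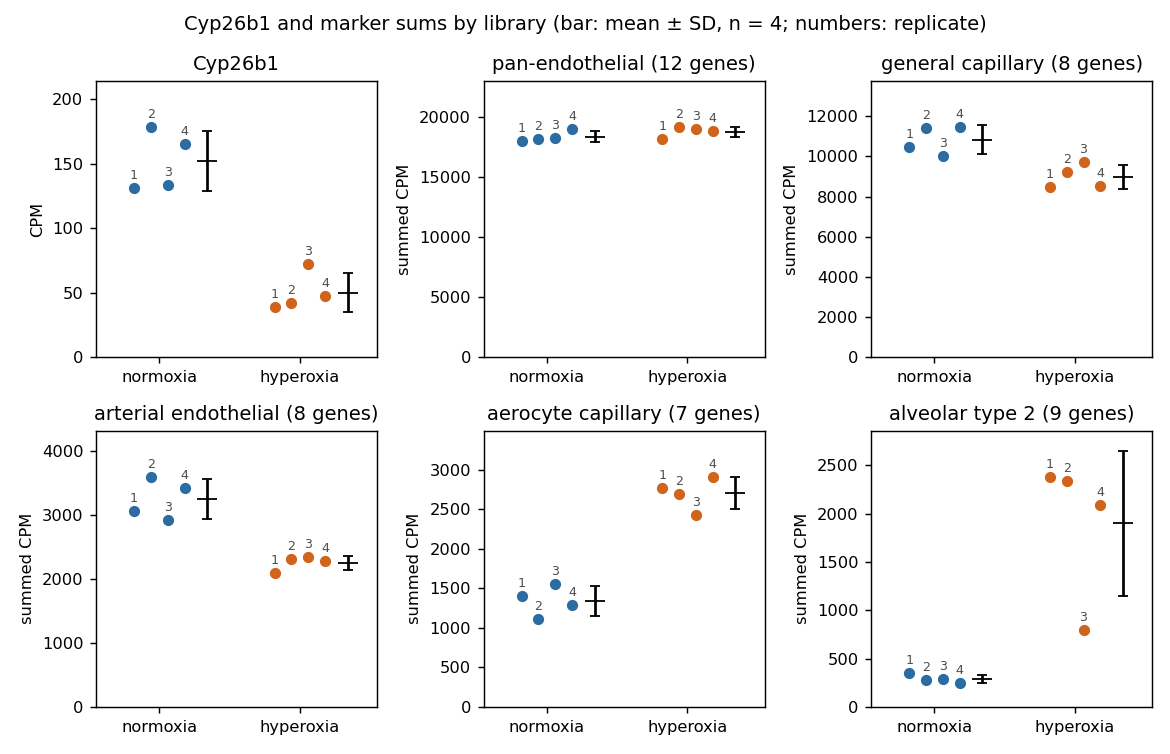
Cyp26b1 (CPM) and the summed CPM of pan-endothelial, general capillary, arterial, aerocyte and alveolar type 2 markers in each library (points, numbered by replicate), with the mean and SD of each group of 4 (bars). Pan-endothelial sums overlapped between the groups, general capillary and arterial sums were lower in hyperoxia, and aerocyte and alveolar type 2 sums were higher, with hyperoxia 3 at 794 CPM of alveolar type 2 markers and the other 3 at 2084 to 2381 CPM.

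To find genes with a like profile, the log2 CPM of each gene was centred over the 8 libraries and compared with that of Cyp26b1 by the root mean square difference, over 10419 genes with a mean of at least 5 CPM. The nearest was Mctp1, a calcium-binding membrane protein, at 0.124 on the log2 scale. Mctp1 averaged 22.1 ± 2.34 CPM in normoxia and 7.47 ± 1.57 CPM in hyperoxia (log2 fold change -1.56, edgeR adjusted p = 1.53e-05). The next was Mex3b, an RNA-binding protein, at 0.205, with 136.7 ± 6.41 CPM in normoxia and 49.4 ± 6.59 CPM in hyperoxia. The measure selects for a fall like that of Cyp26b1, so the fold changes and the p-value given here are no separate evidence. As it also selects for, hyperoxia 3 was the highest hyperoxia library and normoxia 2 the highest normoxia library for both genes.

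The RAR genes, which encode the receptors that bind retinoic acid, did not pass the test. Rara (ENSMUSG00000037992, chr11:98927818-98974942, plus strand) was at 148.2, 178.3, 146.2 and 174.5 CPM in normoxia 1 to 4 and at 125.7, 155.2, 162.1 and 153.3 CPM in hyperoxia 1 to 4. The groups overlapped, and the log2 fold change was -0.12 (SE 0.0902, 95% interval -0.32 to 0.08, edgeR adjusted p = 0.338). Rarg (ENSMUSG00000001288, chr15:102234938-102257517, minus strand) ran from 135.8 to 159.6 CPM in normoxia, and from 137.7 to 150.1 CPM in hyperoxia. Its log2 fold change was 0.00236 with a 95% interval of -0.13 to 0.13 (edgeR adjusted p = 0.979), so changes beyond about 1.10-fold up or 1.09-fold down lay outside the interval. Within normoxia, libraries 2 and 4 had the higher Rara and the lower Rarg levels.

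Rarb (ENSMUSG00000017491, chr14:16430839-16819156, minus strand), the RAR gene that is itself a classical target of the receptors, was scarce. It was at 2.39, 3.30, 1.62 and 2.26 CPM in normoxia 1 to 4 and at 2.74, 2.61, 2.35 and 2.66 CPM in hyperoxia 1 to 4. The hyperoxia libraries lay within the normoxia range, and the log2 fold change was 0.11 (SE 0.219, 95% interval -0.37 to 0.60, edgeR adjusted p = 0.722). Its value is uncertain, because 34.1% of its exon bases overlap exons of Top2b on the opposite strand. Top2b held 39484 counts over the 8 libraries, and whether the counting used strand is not given in the sources used here. Of the summed FPKM of the 3 RAR genes, Rara made up 51.7 ± 4.35% in normoxia and 49.5 ± 3.13% in hyperoxia, Rarg 47.7 ± 4.45% and 49.8 ± 3.06%, and Rarb under 1% in every library (SD, n = 4 each).

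Rxra (ENSMUSG00000015846, chr2:27676440-27762957, plus strand) encodes a partner with which RARs bind DNA. It was at 103.3, 103.4, 90.3 and 99.6 CPM in normoxia 1 to 4 and at 90.4, 95.5, 94.5 and 86.9 CPM in hyperoxia 1 to 4. The groups overlapped through normoxia 3, and the log2 fold change was -0.11 (SE 0.0554, 95% interval -0.23 to 0.01, edgeR adjusted p = 0.147). Without normoxia 3 it was -0.15 and passed the test (edgeR adjusted p = 0.0354). Rxrb, a second RXR gene expressed at a like level, fell from 69.7 ± 1.92 to 59.4 ± 4.68 CPM (log2 fold change -0.23, SE 0.0603, edgeR adjusted p = 0.0125), and Rxrg averaged 0.0282 and 0.0992 CPM and was not tested. Rxra made up 49.0 ± 1.497% of the summed FPKM of the 3 RXR genes in normoxia, against 51.1 ± 1.31% in hyperoxia.

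The promoter windows of the members were searched for the letters that RAR and RXR pairs bind. These are hexamers AGGTCA or AGTTCA or GGGTCA or GGTTCA in direct repeat, spaced by 1, 2 or 5 bases, on either strand. RefSeq windows of GRCm38.p6, from 250 bases before to 50 bases after each start, were used. Of 32851 such windows 43.7% held at least 1 hexamer, but 0.588% held a repeat with any of these spacings and 0.0974% a repeat spaced by 5 bases. Among the members, the window of Rarb alone held a repeat with any of these spacings, and Cyp26a1 held another on the opposite strand, both with a spacing of 5. They are shown with their hexamers and spacer in capitals because these are the family's best-known response elements, in genes that did not pass the test here:
Rarb, chr14:16575507-16575535 (minus strand): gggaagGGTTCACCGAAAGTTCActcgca
Cyp26a1, chr19:37697770-37697798 (plus strand): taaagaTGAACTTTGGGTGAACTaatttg
The single window of Cyp26b1 held 0 hexamers on either strand. The 152 bases of it that precede the annotated first exon are shown in lower case as the region before the member that fell:
Cyp26b1, chr6:84593909-84594060 (minus strand): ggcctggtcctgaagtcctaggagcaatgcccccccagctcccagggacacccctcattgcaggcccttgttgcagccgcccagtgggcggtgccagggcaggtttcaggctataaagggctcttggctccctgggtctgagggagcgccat
These matches are descriptions of the reference sequence, and binding was not measured.

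On the side of synthesis, Dhrs3 (ENSMUSG00000066026, chr4:144892827-144928209, plus strand) encodes a reductase that turns retinaldehyde back into retinol and so restrains retinoic acid formation. It was at 70.3, 58.9, 70.8 and 61.8 CPM in normoxia 1 to 4 and at 77.9, 72.5, 68.8 and 77.0 CPM in hyperoxia 1 to 4. The groups overlapped through hyperoxia 3, the lowest of its group. The log2 fold change was 0.18 (SE 0.0702, 95% interval 0.02 to 0.33). Although this interval leaves out 0, it did not pass the test after adjustment over all genes (edgeR adjusted p = 0.0711). Without normoxia 3 the log2 fold change was 0.22 and passed (edgeR adjusted p = 0.0426).

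The aldehyde dehydrogenases Aldh1a1 and Aldh1a2, which form retinoic acid from retinaldehyde, were near the limit of detection. Aldh1a1 (ENSMUSG00000053279, chr19:20492715-20643462, plus strand) was at 2.63, 1.08, 1.68 and 1.22 CPM in normoxia 1 to 4 and at 2.11, 3.002, 1.37 and 1.78 CPM in hyperoxia 1 to 4. The groups overlapped widely, and the log2 fold change of 0.33 had an interval of -0.40 to 1.06 (edgeR adjusted p = 0.477). Aldh1a2 (ENSMUSG00000013584, chr9:71215789-71296243, plus strand) held 11, 0, 1 and 0 counts in normoxia 1 to 4 and 6, 8, 2 and 2 counts in hyperoxia 1 to 4. The libraries at 0 counts allow up to 0.171 and 0.166 CPM, from 3 counts of their totals, and this limit covers counting error only. No difference in Aldh1a2 was detectable at this depth.

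Stra6 (ENSMUSG00000032327, chr9:58063788-58153996, plus strand) encodes the membrane receptor that takes up retinol from its carrier protein in plasma. It was at 1.71, 1.71, 2.69 and 1.99 CPM in normoxia 1 to 4 and at 0.856, 1.59, 1.83 and 1.28 CPM in hyperoxia 1 to 4. The groups overlapped through hyperoxia 3, and the log2 fold change was -0.54 (SE 0.272, 95% interval -1.15 to 0.06, edgeR adjusted p = 0.146). A fall to less than 1 in 2.21 of the normoxia level, or a rise beyond 1.04-fold, lay outside this interval.

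The wider pathway was described by a list of 35 further genes for receptors, synthesis, storage and binding, breakdown and coregulators. Of these 22 were tested, 5 rose and 4 fell in hyperoxia (18.5% and 17.1% of all tested genes did so), and their median log2 fold change was 0.02. In the list for synthesis, Aldh1a7, a close relative of Aldh1a1, rose from 0.509 ± 0.263 to 3.76 ± 1.20 CPM (log2 fold change 2.88, edgeR adjusted p = 0.000199). The normoxia libraries held 14, 9, 8 and 4 counts of Aldh1a7, so it passed the filter on low counts only because of its hyperoxia libraries. Its call is therefore a description only. Whether Aldh1a7 forms retinoic acid was not measured. Because it is a near copy of Aldh1a1, reads could have been split between both, and its value is uncertain. It was at 0.70 with the AT1 and AT2 score in the model (edgeR adjusted p = 0.737). Rdh10, the dehydrogenase that oxidizes retinol, fell from 12.6 ± 1.24 to 10.0 ± 1.01 CPM (log2 fold change -0.32, edgeR adjusted p = 0.0396). That call was lost when any of normoxia 1, 2 or 3 or hyperoxia 1 or 4 was left out (adjusted p from 0.0572 to 0.101), and with no filter or with the replicate number as a block.

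Of the binding proteins, Fabp5, which can carry retinoic acid to the receptor PPARD, rose from 15.9 ± 2.77 to 29.3 ± 4.71 CPM (log2 fold change 0.88, edgeR adjusted p = 0.000750). Ppard itself rose from 28.9 ± 2.81 to 41.3 ± 1.80 CPM (log2 fold change 0.52, edgeR adjusted p = 0.000323), and neither gene's groups overlapped. With the AT1 and AT2 score in the model Fabp5 was at 0.058 and Ppard at 0.45 (edgeR adjusted p = 0.962 and 0.434). Crabp2, a cellular carrier of retinoic acid, averaged 2.03 CPM in normoxia and 1.75 CPM in hyperoxia, which did not pass. Lrat, which esterifies retinol for storage, averaged 0.143 CPM in normoxia with 0.0845 CPM in hyperoxia, and it was among 13 genes that were not tested. None of those 13 had a group mean above 0.589 CPM.

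The 8 coregulators were all tested, 2 rose and 2 fell. Nrip1, a corepressor of liganded receptors, rose from 59.97 ± 7.56 to 84.7 ± 3.73 CPM (log2 fold change 0.50, edgeR adjusted p = 0.000852). The coactivator Ncoa2 fell from 110 ± 13.3 to 89.5 ± 2.85 CPM (log2 fold change -0.29, edgeR adjusted p = 0.0137). The acetyltransferase Ep300 fell by 0.24 (edgeR adjusted p = 0.0362), a call lost when any of normoxia 2 or 4 or hyperoxia 1, 2 or 4 was left out (adjusted p from 0.0679 to 0.0987). With the AT1 and AT2 score in the model Nrip1 was at 0.60, Ncoa2 at -0.096 and Ep300 at 0.095 (edgeR adjusted p = 0.328, 0.902 and 0.898). Ncor1, Ncoa1, Ncoa3 and Crebbp did not pass.

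**Figure D4:**
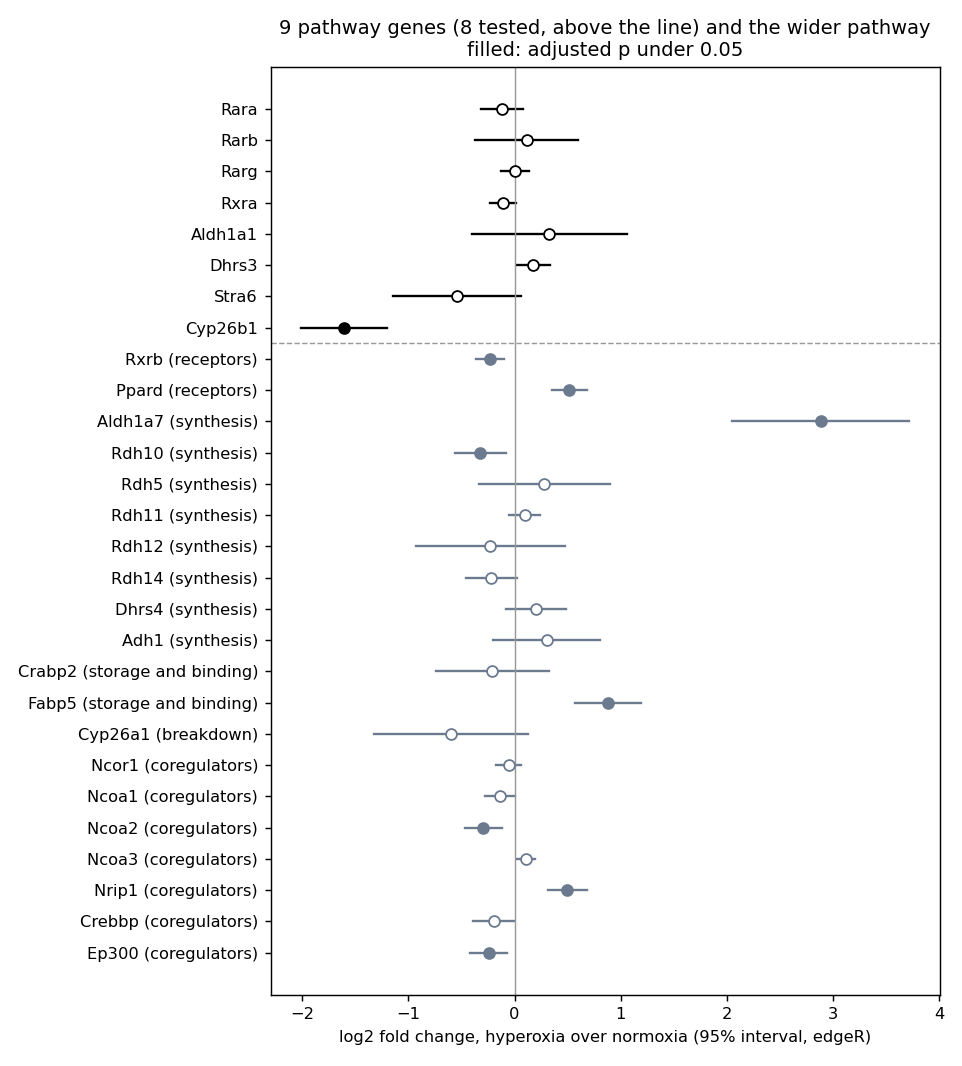
Log2 fold change of hyperoxia over normoxia with its 95% interval (edgeR) for the 8 tested members in black, above the dashed line, and 20 of the 22 tested genes of the wider pathway in grey, each marked with the list it was placed in. Filled points passed an adjusted p of 0.05, and Cyp26b1 at -1.61 and Aldh1a7 at 2.88 lay farthest from 0. Aldh1a7 passed the filter on low counts only because of its hyperoxia libraries.

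Genes known to respond to retinoic acid in other tissues moved both ways. Of 19 listed genes 18 were tested, 6 rose and 4 fell (18.5% and 17.1% of all tested genes did so), with a median log2 fold change of -0.01. Hoxa5, a homeobox gene needed for lung development, was at 173.0, 167.3, 138.8 and 155.9 CPM in normoxia 1 to 4 and at 66.7, 69.9, 71.0 and 75.9 CPM in hyperoxia 1 to 4. The groups were far apart, and the gene fell by 1.16 on the log2 scale (SE 0.0709, edgeR adjusted p = 1.13e-06). Of the 8 tested members and the 22 other genes of these lists that passed, it was the 1 gene that also passed with each of the AT1 and AT2, mural and fibroblast scores in the model. Meis1, Hoxb4 and Hoxa4, further homeobox genes, fell by 0.46, 0.34 and 0.46 (edgeR adjusted p = 0.000182, 0.00520 and 0.0229). With the AT1 and AT2 score in the model Meis1 was at -0.40 and Hoxb4 at -0.027, and neither passed. The call of Hoxa4, whose exons overlap an antisense transcript over 16% of their bases, was lost when any of normoxia 1 or 2 or hyperoxia 1 or 3 was left out (adjusted p from 0.0513 to 0.0610).

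Among the response genes that rose, Gprc5a, an orphan receptor first known as a retinoic acid induced gene and abundant in lung epithelium, was at 26.3, 25.7, 23.2 and 24.3 CPM in normoxia 1 to 4 and at 94.2, 94.9, 53.9 and 101.0 CPM in hyperoxia 1 to 4. Its lowest hyperoxia library was hyperoxia 3, which also had the lowest AT1 and AT2 sums of that group. The log2 fold change was 1.79 (SE 0.168, edgeR adjusted p = 2.02e-05). With the AT1 and AT2 score in the model it was 0.40 (SE 0.201, edgeR adjusted p = 0.468). Rai14, Rarres1 and Rarres2 rose by 0.52, 0.76 and 1.504 (edgeR adjusted p = 8.12e-05, 0.0171 and 0.00203). Rarres1 and Rarres2 were scarce, at 3.43 and 2.33 CPM in hyperoxia. The call of Rarres1 was lost without hyperoxia 4 (adjusted p = 0.0572), and 33.6% of the exon bases of Rarres2 overlap Lrrc61. Nr2f2, a transcription factor of venous identity, rose by 0.37 (edgeR adjusted p = 0.0267), a call lost in 5 of the 8 fits that left out a library (adjusted p from 0.0518 to 0.0681). Tgm2, Hoxb5, Meis2, Nr2f1, Cyp26a1 and Crabp2 were among the 8 genes that did not pass.

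A further list held 9 genes of alveolar growth, a process in which retinoic acid is known to act. Of its 8 tested genes 3 rose and 1 fell, beside 18.5% and 17.1% of all tested genes. Pdgfa, a growth factor for septal fibroblasts, rose from 8.51 ± 0.794 to 16.5 ± 2.47 CPM (log2 fold change 0.96, edgeR adjusted p = 0.000201), although 26.1% of its exon bases overlap an antisense transcript. Fgf18 rose from 0.403 ± 0.0784 to 1.36 ± 0.338 CPM (log2 fold change 1.74, edgeR adjusted p = 0.00129). Its normoxia libraries held 8, 6, 8 and 6 counts, so it passed the filter on low counts through its hyperoxia libraries alone. The call of Fgf18 is therefore a description only. Fbn1, which encodes the microfibril protein fibrillin-1, rose by 0.39 (edgeR adjusted p = 0.00479). Vegfa, the main growth factor of ECs, fell from 555 ± 58.1 to 429 ± 10.3 CPM (log2 fold change -0.37, edgeR adjusted p = 0.00203). Elastin (Eln) averaged 4857 ± 914 and 4939 ± 786 CPM in the normoxia and hyperoxia groups and did not pass (95% interval of the log2 fold change -0.28 to 0.33, edgeR adjusted p = 0.910). With the AT1 and AT2 score in the model Pdgfa was at 0.13, Fgf18 at 0.20, Fbn1 at 0.25 and Vegfa at -0.33 (edgeR adjusted p = 0.876, 0.941, 0.741 and 0.586). Without hyperoxia 3 this list had 5 genes higher in place of 3.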

How the data were processed

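The authors deposited whole-number read counts and FPKM per gene for 8 libraries of mouse lung ECs. The submitters' processing notes name HISAT2 2.0.5, featureCounts 1.5.0-p3 and build mm10. The strand setting and the handling of multi-mapped reads are not given in the sources used here. Groups were taken from the sample titles. The deposited counts were tested with edgeR 4.0.16 in R 4.3.3 (quasi-likelihood test, TMM normalization, filterByExpr, group as the only term), which kept 15564 genes, and p-values were adjusted by Benjamini-Hochberg over these genes. The study itself used DESeq2. CPM are counts scaled to a common library size after TMM, fold changes are hyperoxia over normoxia, and SE and intervals follow from the quasi-likelihood F statistic. Deposited FPKM was used to compare levels between genes and, as log2(FPKM + 0.1) and log2(FPKM + 1) in limma 3.58.1, as an alternative. Marker sums were compared by exact permutation tests.

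The members and all gene lists were chosen with earlier results of these data known. All 9 members were described, beside the genes of the fixed lists that passed and the 2 genes most like Cyp26b1. Other genes of those lists were named as examples after their values were seen. Alternatives were DESeq2 1.42.0, limma-voom, other size factors and filters, a fold threshold, the replicate number as a block, marker scores as covariates and leaving out each library. The steps were tested on simulated counts. Of 54532 gene identifiers 54409 were found in GENCODE M21 (GRCm38), 98.3% with the same start and end. Promoter sequences are from RefSeq (GRCm38.p6). Some genes of the lists are counted but not reported here by name.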

Additional observations from a re-analysis of the deposited data

Results flagged for a closer look

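Of 62 groups of 4 libraries checked, 5 held a library far from the other 3 relative to the range of its group, and chance flags about 1 in 20 groups. Aldh1a2 in normoxia 1 was measured at 0.674 CPM, while the rest of its group lay at 0 to 0.0559 CPM. Rxrb in hyperoxia 4 was measured at 52.4 CPM, below the 61.6 to 61.8 CPM of its group. Hoxb4 stood apart in both groups, with normoxia 2 at 39.3 CPM against 32.7 to 33.8 CPM, and hyperoxia 3 at 30.5 CPM against 26.04 to 26.74 CPM. Gprc5a in hyperoxia 3 was measured at 53.9 CPM, below the 94.2 to 101.0 CPM of its group.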

How the results depend on the processing

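The tested members gave 169 values under the alternatives, of which 145 kept direction and side of the threshold, 2 lost and 2 gained a call and 20 changed direction. The fall of Cyp26b1 kept its call under every alternative that added no marker score, at -1.84 to -1.499 with a library left out. Its value was -0.26 with AT1 and AT2 markers in the model, -0.97 with mural markers, and 0.11 with AT1 and AT2 markers and without hyperoxia 3. Leaving out a library gave 0 to 1 members higher and 1 to 2 lower, 2 to 4 wider pathway genes lower (2 without normoxia 2, hyperoxia 1 or hyperoxia 4) and 3 to 5 alveolar growth genes higher. With AT1 and AT2 markers 0 members, 0 wider pathway genes higher and 0 lower, 0 response genes higher and 1 lower, and 0 alveolar growth genes higher passed. With mural markers these were 0 members, 1 and 0 wider pathway genes, 2 and 1 response genes, and 0 and 0 alveolar growth genes, and with fibroblast markers 0 wider pathway genes were lower. With a log2 fold change of at least 1 the counts higher and lower were 1 and 0 in the wider pathway, 2 and 1 among response genes and 1 and 0 among alveolar growth genes, since few fold changes were that large. Over all genes, 2875 higher and 2660 lower became 875 and 212 with that threshold, 188 and 39 with AT1 and AT2 markers, 1714 and 1409 with fibroblast markers and 553 and 343 with mural markers. Values that changed direction did not pass before or after, apart from Cyp26b1 and Ep300. With AT1 and AT2 markers Rara was at 0.27, Rarb at -0.18, Rarg at -0.26, Aldh1a1 at -1.41, Dhrs3 at -0.12, Stra6 at 0.37 and Ep300 at 0.095. With mural markers Rara was at 0.031, Rarb at -0.063, Rarg at -0.21 and Aldh1a1 at -1.02, and with fibroblast markers Rarb was at -0.057, Rarg at -0.086 and Aldh1a1 at -0.32. Rarg was at -0.021 on library totals without TMM, and with a library left out it ran from -0.031 to 0.047 and Rarb from -0.036 to 0.31. The cause of these changes was not tested. Hoxa5 kept its fall under all 21 alternatives.

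The labels do not say whether equal replicate numbers mark paired libraries. Correlations of deviations between same-numbered libraries were 0.119, 0.0361, -0.125 and -0.140. The highest with a library of another number were 0.107, 0.0998, 0.237 and 0.279. These correlations cannot show whether the libraries were paired. With the replicate number as a block Cyp26b1 was at -1.64 (edgeR adjusted p = 0.000400), and of the genes named here Rdh10 alone lost its call (edgeR adjusted p = 0.0783).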
